A study of Drosophila melanogaster with 6 samples.

Results

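The genes described here are blood-cell (haemocyte) scavenger, Nimrod and thioester genes of Drosophila melanogaster. They are Sr-CI, Sr-CII and Sr-CIV of the class C scavenger receptor family, the Nimrod receptors eater and NimC1, and the clotting protein Hml. The others are Tep2, Tep3, Tep4 and Mcr of the thioester protein family. All were chosen by gene symbol, as 10 names looked up in the array platform's annotation. The list was drawn up with the differences between the 2 genotypes already known. Of the 10 genes, 8 had a probe set, 1 each, among 18769 probe sets in all. Tep2 and Mcr had no probe set under their names in the annotation used and were not analysed here.

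RNA came from whole adult females of Calment1/4, a mutant isogenized into the CS10 background, and of CanS, the wild-type stock Canton-S, with 3 arrays for each. Each sample pooled 30 to 35 flies cultured at 25 °C. The groups differ in genotype and in stock background together, so a difference belongs to the 2 stocks and the effect of the mutation cannot be told apart from that of the background. In whole flies, fewer cells of a type and less RNA per cell cannot be told apart either.

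Plasmatocytes, the macrophage-like blood cells of the fly, take up bacteria and dead cells through receptors of the scavenger and Nimrod families. Nimrod receptors carry repeats of an EGF-like motif outside the cell. Thioester proteins are secreted relatives of vertebrate complement factor C3 and alpha-2-macroglobulin, made in blood cells and fat body, and some of them mark microbes for uptake. Hml, or hemolectin, helps the haemolymph clot and is a standard marker of plasmatocytes.

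Most of these genes had lower means in Calment1/4, and the class C scavenger receptors split in both directions. Of the 8 genes measured, 6 were lower and 2 higher in Calment1/4. The median difference, Calment1/4 minus CanS, was -0.40 on the log2 scale, beside a median of 0.0005 over all tested probe sets. An adjusted p of 0.05 in limma, over all probe sets, was passed by 3 of the 8, Sr-CI and Tep3 lower and Sr-CIV higher, where 0.464% of all probe sets passed (0.197% lower and 0.266% higher). The groups did not overlap in 6 of the 8, against 12.6% of all probe sets. Since the genes were chosen with this comparison in view, these counts describe them, and no p-value is given for a member.

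Sr-CI is a plasmatocyte receptor that binds bacteria and helps their uptake. Its log2 values were 6.08, 5.39 and 5.78 in Calment1/4 replicates 1 to 3 and 6.94, 7.10 and 6.92 in CanS. Every Calment1/4 array lay below every CanS array, with a gap of 0.84 between the nearest arrays. The means were 5.75 ± 0.35 and 6.99 ± 0.10 (SD, n = 3 each), a log2 difference of -1.24 with a standard error of 0.16, or 2.36-fold lower in Calment1/4. The spread was wider in Calment1/4, where replicate 2 was the lowest array.

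Sr-CIV, of the same family, ran the other way. Its values were 6.42, 6.26 and 6.43 in Calment1/4 and 5.04, 5.40 and 5.65 in CanS. The groups did not overlap, and here it was CanS that spread more, with replicate 1 lowest and replicate 3 highest. The means were 6.37 ± 0.10 and 5.36 ± 0.31 (SD, n = 3 each), a log2 difference of 1.01 (SE 0.15), or 2.01-fold higher in Calment1/4. Sr-CI and Sr-CIV were the members that differed by at least 1 on the log2 scale, a size reached by 0.549% of all probe sets.

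Sr-CII was the dimmest member, with a mean at percentile 33.8 of all probe sets, so its difference can be understated near the array floor. Its values were 4.71, 4.77 and 4.59 in Calment1/4 and 4.40, 4.02 and 4.61 in CanS. CanS replicate 3 stood just above Calment1/4 replicate 3, so the groups overlapped. The log2 difference was 0.35 (SE 0.14). Sr-CIII, the remaining class C gene and the immediate neighbour of Sr-CI on chromosome arm 2L, is not a member and was at 4.25 in both genotypes (log2 difference 0.00, SE 0.08, adjusted p = 0.998 in limma). Its mean lay at percentile 28.4, also close to the floor.

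**Figure D1:**
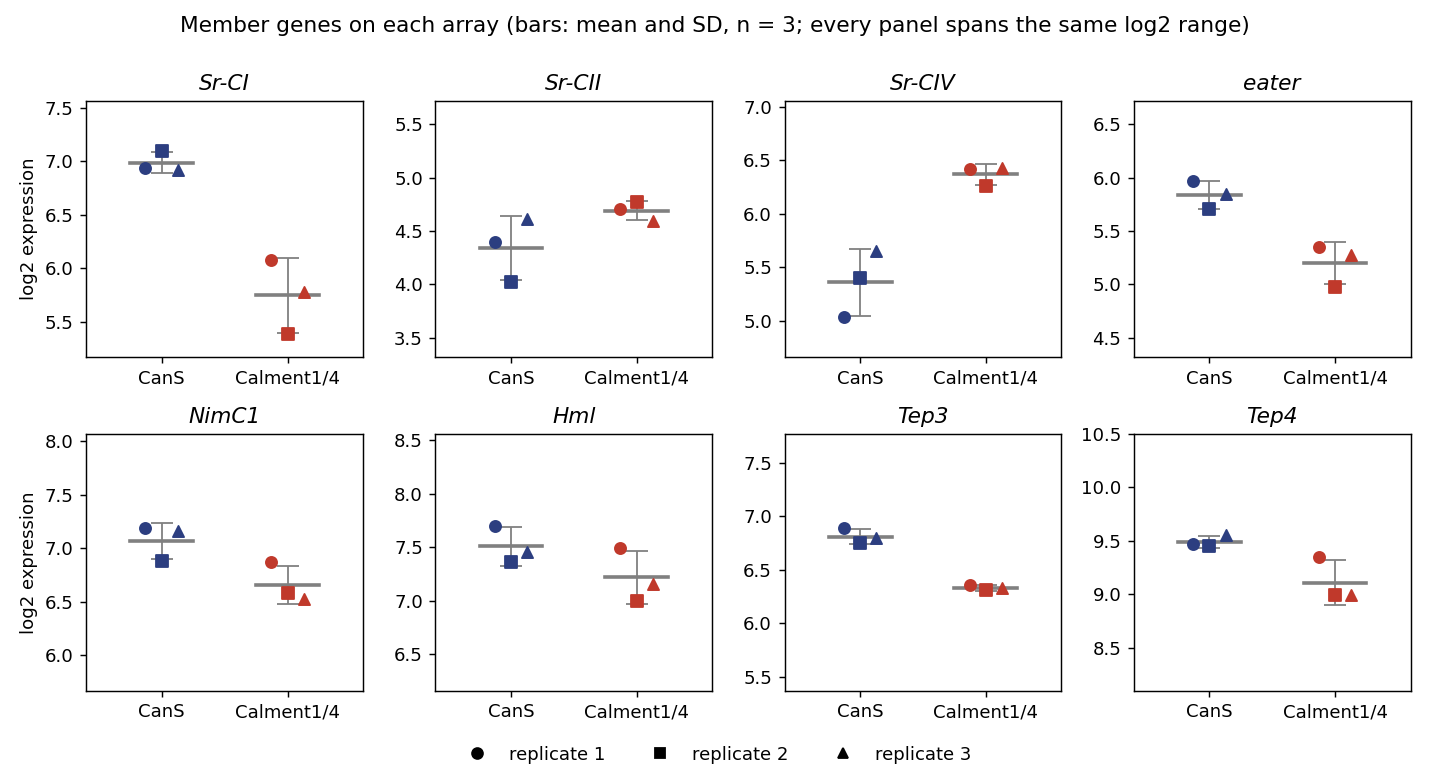
Log2 expression (y axis) of the 8 measured genes on each of the 6 arrays, by genotype (x axis); marker shapes stand for the replicate number and grey bars for the mean and SD of 3 arrays. Sr-CI is lower and Sr-CIV higher on all 3 Calment1/4 arrays, by -1.24 and 1.01 on the log2 scale, while the groups overlap for Sr-CII and Hml.

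The Nimrod receptors had lower means in Calment1/4, and neither passed the threshold. The gene eater encodes a receptor for the uptake of bacteria that also anchors blood cells to tissue. Its values were 5.35, 4.98 and 5.28 in Calment1/4 and 5.97, 5.71 and 5.85 in CanS. All 3 Calment1/4 arrays were below all 3 CanS arrays, with a gap of 0.36. The means were 5.20 ± 0.20 and 5.84 ± 0.13 (SD, n = 3 each), a log2 difference of -0.64 (SE 0.12), or 1.55-fold.

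NimC1 encodes the P1 antigen of plasmatocytes, a phagocytic receptor. Its values were 6.87, 6.58 and 6.53 in Calment1/4 and 7.19, 6.88 and 7.16 in CanS. The groups were separated by only 0.01, between Calment1/4 replicate 1 and CanS replicate 2. The log2 difference was -0.42 (SE 0.12).

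Hml had the smallest difference in size. Its values were 7.49, 7.00 and 7.16 in Calment1/4 and 7.70, 7.36 and 7.46 in CanS. Calment1/4 replicate 1 lay above CanS replicates 2 and 3, so the groups overlapped. The log2 difference was -0.29 (SE 0.14).

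Of the thioester genes with a probe set, Tep3 passed the threshold and Tep4 did not. Tep3 had values of 6.36, 6.31 and 6.33 in Calment1/4 and 6.89, 6.75 and 6.80 in CanS. The means were 6.33 ± 0.03 and 6.81 ± 0.07 (SD, n = 3 each), the Calment1/4 group was the tightest of any member, and the groups did not overlap. The log2 difference was -0.48 (SE 0.08), or 1.40-fold. Tep3 thus passed the threshold with a smaller difference than that of eater, which did not pass.

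Tep4 was the brightest member, with a mean at percentile 85.0. Its values were 9.35, 8.99 and 8.99 in Calment1/4 and 9.47, 9.45 and 9.56 in CanS. The groups did not overlap, but Calment1/4 replicate 1 was only 0.09 below the lowest CanS array. The log2 difference was -0.38 (SE 0.11), or 1.30-fold.

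The members were also compared among the arrays of 1 genotype, which does not use the difference between genotypes. Calment1/4 replicate 1 was the highest array of its group for 6 of the 8 genes, all but Sr-CII and Sr-CIV. Calment1/4 replicate 2 was the lowest for 6, all but Sr-CII and NimC1. In CanS, replicate 2 was the lowest for 6, all but Sr-CI and Sr-CIV. With each group's mean taken off, the Pearson correlation over the 6 arrays was above 0 for 23 of 28 pairs of members. These correlations describe 6 arrays with 4 degrees of freedom, and the genes share the same RNA on each array. The share of pairs above 0 among other genes was not computed. Calment1/4 replicate 1 also had the highest median of its group over all probe sets, 5.91 against 5.84. Among the lists below, this array had the highest mean of its group for other Nimrod, other scavenger, clotting, blood-cell, gut, muscle and neuron genes. It had the lowest for the JAK/STAT, eggshell and female germline lists, and lay between for fat body.

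Hml had the highest median correlation with the other 7 genes, at 0.74. It was 0.88 with eater, 0.84 with NimC1 and 0.83 with Tep3. Sr-CIV had the lowest, at -0.04, and accounted for 4 of the 5 pairs below 0, down to -0.53 with Tep3. Sr-CIV was higher in Calment1/4 by 1.01. Sr-CII, the other member with a higher mean there, had 6 of its 7 pairs above 0 and a median correlation of 0.20.

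**Figure D2:**
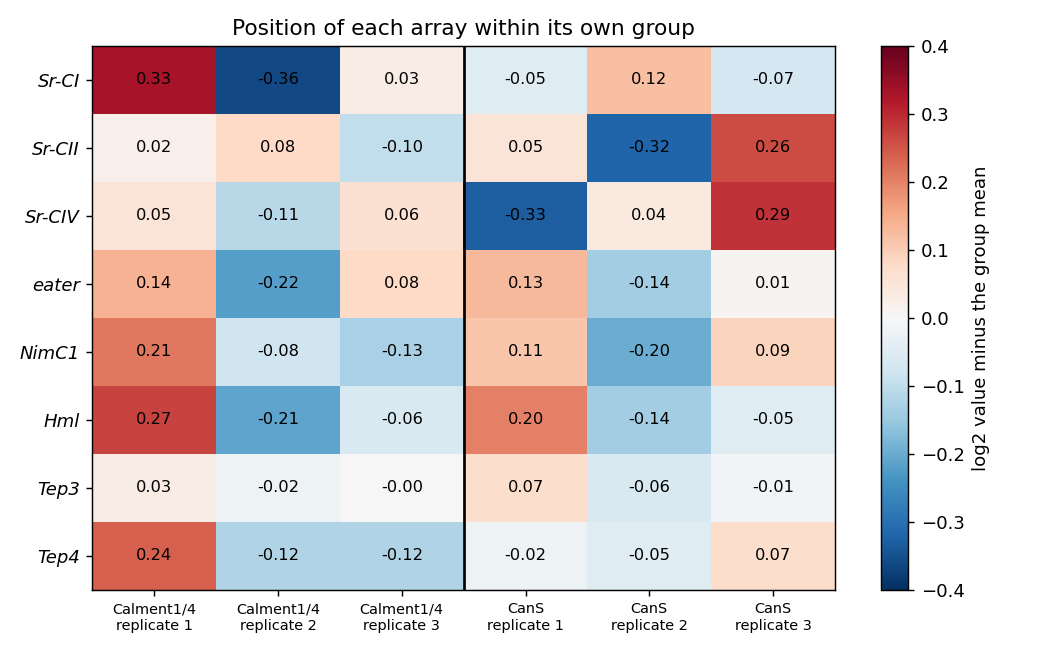
Log2 value of each member (rows) on each array (columns) minus the mean of that array's own group; colour and printed numbers give the deviation. Calment1/4 replicate 1 is highest and replicate 2 lowest of its group for 6 of 8 genes each, and Sr-CIV has its widest deviations in CanS, from -0.33 to 0.29.

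The arrays as a whole and markers of the tissue make-up of the samples were also described. The arrays correlated at 0.991 to 0.998 over all probe sets, and Calment1/4 replicate 1 was closest to CanS replicate 3 (r = 0.995). These arrays had the lowest mean log2 values of their groups over 10 eggshell genes, 12.06 and 11.77, against 12.55 to 12.83 on the others. Gut markers, 8 of 11 listed, had means of 10.60 to 10.83 in Calment1/4 and 11.22 to 11.36 in CanS. Fat body markers, 9 of 9, stood at 10.78 to 10.83 and 11.17 to 11.44. Neither list's mean overlapped between the genotypes, and both means were lower in Calment1/4, as 6 members were. All 8 gut genes and 8 of the 9 fat body genes lay below 0, some of them much further than others. The fat body list had a median difference of -0.17 with fit at -2.17 and Lsp2 at -1.36, and fit was its 1 call. The gut list had a median of -0.40, with Mal-A1 lowest at -1.47 and Npc2e at -1.31. Its smallest differences were betaTry at -0.01 and alphaTry at -0.04, both very bright (percentile 99.9). The groups did not overlap in 5 of the 8 gut genes, against 12.6% of all probe sets. None of them passed in limma, with 5 at an unadjusted p under 0.05 (against 7.67% of all probe sets). The part of either list in the members' differences was not tested. The groups overlapped for female germline (9.16 to 9.63 and 9.12 to 9.46), muscle (11.20 to 11.57 and 11.23 to 12.07) and neuron markers (7.49 to 7.55 and 7.20 to 7.58). The eggshell means overlapped too, with a median difference of 0.15, 7 genes above and 3 below 0. Its 1 call was Cp18, higher in Calment1/4 (0.74, adjusted p = 0.0435 in limma), where 0.464% of all probe sets passed.

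Calls among the members depended on single arrays. The count of 3 became 5 without Calment1/4 replicate 1, with eater and Tep4 added. It was 1 without Calment1/4 replicate 2 (Sr-CI), 1 without CanS replicate 1 and 1 without CanS replicate 3 (Sr-CIV in both). Without Calment1/4 replicate 3, and without CanS replicate 2, it was 0. The share of all probe sets passing was 1.5% without Calment1/4 replicate 1, then 0.202% and 0.24% without replicates 2 and 3 of that group. Without CanS replicates 1, 2 and 3 it was 0.32%, 0.314% and 0.288%. Without Calment1/4 replicate 1 and CanS replicate 3 together, 2 members passed, Sr-CI and Sr-CIV, where 1.21% of all probe sets did. With array weights 5 members passed beside 1.8% of all probe sets, with trend and robust eBayes 2 beside 0.495%, and at an adjusted p of 0.01 none beside 0.202%. With the replicate number as a block, none passed beside 0.16%, although the numbers were not found to pair the arrays.

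With 1 array left out, Sr-CI ran from -1.40 to -1.06, Sr-CIV from 0.85 to 1.15, eater from -0.71 to -0.52 and Tep3 from -0.51 to -0.44 on the log2 scale. Hml ran from -0.43 to -0.19 and Sr-CII from 0.19 to 0.48, the widest ranges relative to their size. No member changed direction in these refits, which for the 6 members whose groups do not overlap follows from the values themselves.

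**Figure D3:**
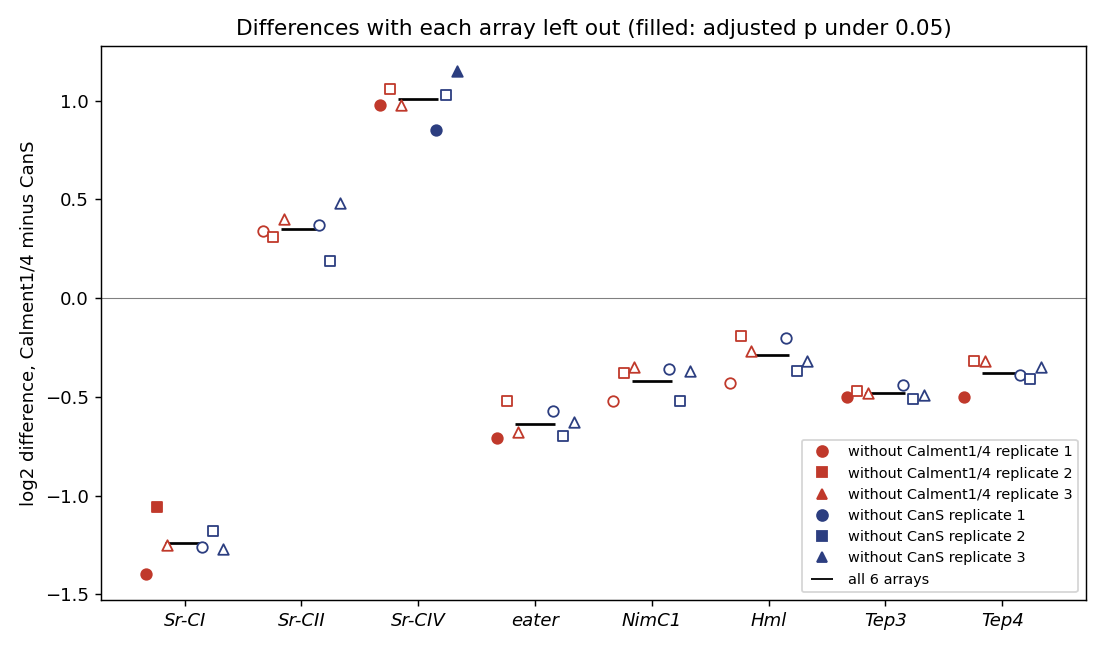
Log2 difference, Calment1/4 minus CanS (y axis), for each member (x axis) with all 6 arrays (black bar) and with each array left out (markers, red for a Calment1/4 array left out and blue for a CanS array); filled markers passed an adjusted p of 0.05. The differences of Sr-CI run from -1.40 to -1.06 and those of Sr-CIV from 0.85 to 1.15, and 5 members pass without Calment1/4 replicate 1.

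Related genes that are not members were then counted, to see whether the wider families and other blood-cell genes differed. Of 10 other Nimrod and engulfment receptors measured, 0 passed the threshold in limma, with 1 at an unadjusted p under 0.05, a cut that 7.67% of all probe sets met. Their median difference was -0.06, within a range of -0.51 to 0.09, with 7 below and 3 above 0. NimC4, also called simu, a receptor for apoptotic cells, had values of 5.96, 6.28 and 6.09 in Calment1/4 and 6.53, 6.32 and 7.01 in CanS. The groups did not overlap, and the log2 difference was -0.51 (SE 0.17, adjusted p = 0.448 in limma). NimB2, a secreted Nimrod protein, was at -0.43 (SE 0.20, adjusted p = 0.685 in limma), and drpr, the engulfment receptor Draper, at 0.03.

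Among 8 other scavenger receptors 0 passed in limma, with 0 at an unadjusted p under 0.05. Their median was -0.08, with 6 below and 2 above 0, the same counts as among the members. The 2 of smallest p were the CD36-family genes Snmp2 (-0.21, adjusted p = 0.730 in limma) and santa-maria (-0.26, adjusted p = 0.805 in limma). The plasmatocyte receptor croquemort, crq, was at -0.05 (SE 0.13).

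Of 10 clotting and melanization genes 0 passed in limma, with 3 at an unadjusted p under 0.05 (1 higher and 2 lower, against 7.67% of all probe sets). In all, 6 lay below and 4 above 0, and their prophenoloxidases lay on both sides. PPO1, made by crystal cells, had values of 7.20, 6.90 and 6.51 in Calment1/4 and 7.81, 7.62 and 7.28 in CanS (log2 difference -0.70, SE 0.19, adjusted p = 0.277 in limma). PPO3, made by lamellocytes, had 5.79, 6.18 and 6.32 in Calment1/4 and 5.53, 5.71 and 5.46 in CanS (log2 difference 0.53, SE 0.14, adjusted p = 0.250 in limma). The groups did not overlap for either gene. PPO3 passed without Calment1/4 replicate 1 (0.68, adjusted p = 0.0211 in limma), where 1.5% of all probe sets did. Without any other single array it did not pass (adjusted p of 0.365 to 0.782 in limma). Its log2 difference with 1 array left out ran from 0.42 to 0.68. Leaving out Calment1/4 replicate 1 and CanS replicate 3 together, PPO1 passed as well (-1.01, adjusted p = 0.0269 in limma), where 1.21% of all probe sets did. With 1 array left out, PPO1 did not pass (adjusted p of 0.0513 to 0.703 in limma).

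The 15 blood-cell markers had a median of 0.01, 7 below and 8 above 0, and 0 passed in limma, with 5 at an unadjusted p under 0.05 (against 7.67% of all probe sets). Of these 5, 4 had higher values in Calment1/4, lz at 0.35, the collagen IV genes Col4a1 and vkg at 0.35 and 0.32 and the GATA factor srp at 0.27, and 1, Glt, had lower values. Col4a1, vkg and srp are named after their values were seen. The list's mean log2 level was 7.71 to 7.72 in Calment1/4 and 7.58 to 7.76 in CanS, so the groups overlapped on the 15 genes together. Several of these markers are also expressed outside blood cells. Glt, or glutactin, a basement membrane protein, had values of 9.43, 9.13 and 9.19 in Calment1/4 and 9.78, 9.70 and 9.80 in CanS (log2 difference -0.51, SE 0.10, adjusted p = 0.0934 in limma). Without Calment1/4 replicate 1 it passed (-0.60, adjusted p = 0.0177 in limma), where 1.5% of all probe sets did. Without any other single array Glt did not pass (adjusted p of 0.21 to 0.4 in limma). The crystal cell transcription factor lz was at 0.35 (SE 0.09, adjusted p = 0.223 in limma), from a dim mean at percentile 25.3. Hemese, He, a blood-cell surface protein, was at -0.08 and also dim (percentile 32.4).

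Of the list on other thioester genes and the JAK/STAT pathway, a cytokine pathway that induces some thioester genes, 6 of 10 were measured and Tep1 was not among them. None of the 6 passed in limma, with 0 at an unadjusted p under 0.05. All lay between -0.10 and 0.09, 2 below and 4 above 0. The cytokine gene upd2 was at -0.10 (adjusted p = 0.955 in limma) and Su(var)2-10, which encodes a PIAS-family inhibitor of the pathway, at 0.09 (adjusted p = 0.991 in limma).

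**Figure D4:**
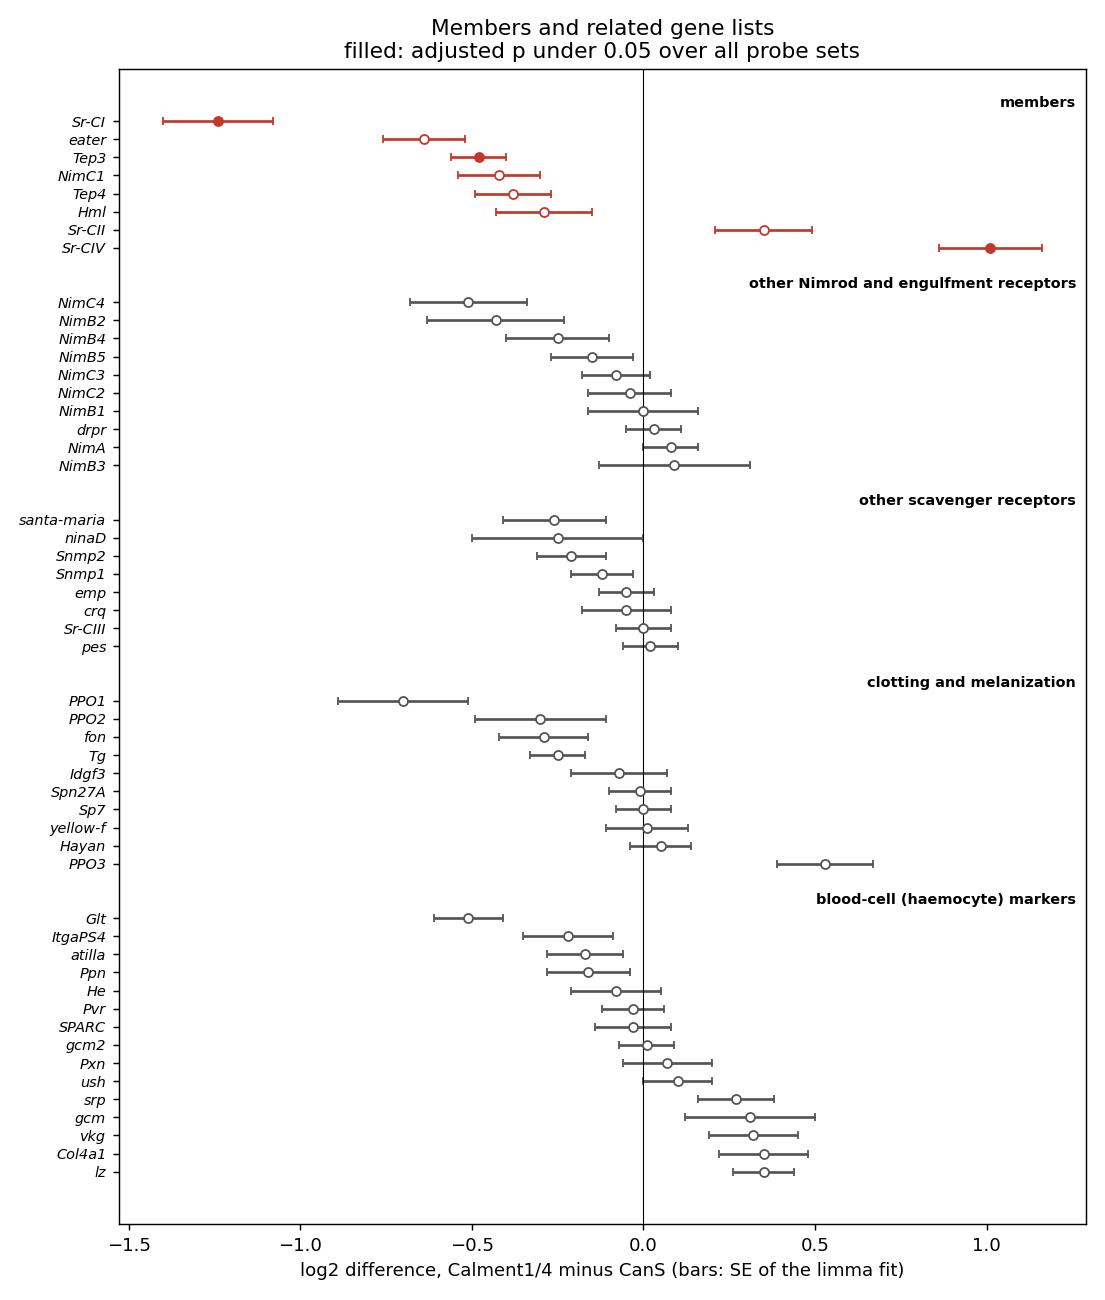
Log2 difference, Calment1/4 minus CanS (x axis), with the standard error of the fit, for the members (red) and 4 lists of related genes (grey); filled points passed an adjusted p of 0.05 over all probe sets. Sr-CI, Tep3 and Sr-CIV are filled, and no gene of the 4 lists is.

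The position of the members on the chromosomes was not used to choose them. By the RefSeq annotation (assembly Release 6 plus ISO1 MT), 5 of the 8 lie on arm 2L, namely Sr-CI, Sr-CIV, NimC1, Tep3 and Tep4, where 18.5% of the measured genes with a location lie. Sr-CII lies on 2R, Hml on 3L and eater on 3R. The other Nimrod and engulfment receptors listed above also lie on 2L, all but drpr on 3L. The arm is thus not particular to the members. No source used here names the build behind the array's own annotation, so gene order is used and no coordinates.

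NimC1 sits inside a cluster of Nimrod genes on 2L, with He as its nearest neighbour on one side and Cyp28a5, a cytochrome P450, on the other. Among the 5 protein-coding genes on each side, NimB2, NimB3, NimB4, NimB5, He and NimC2 were at -0.43, 0.09, -0.25, -0.15, -0.08 and -0.04 on the log2 scale. Cyp28a5 was at -0.20. None of these neighbours passed in limma (adjusted p of 0.685 or above), and the difference between NimC1, at -0.42, and its neighbours was not tested.

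Sr-CI has Sr-CIII on one side and CG2955 on the other, the latter at -0.14 and near the floor. Among the 8 of its 10 nearest protein-coding genes that were measured, 1 passed, Naprt, the gene for nicotinate phosphoribosyltransferase, at the edge of that window (-0.74, adjusted p = 0.00515 in limma). Between Sr-CI and Naprt lie CG2955, Or24a at 0.21, Tbcc at -0.07 and lectin-24Db, a C-type lectin, at -0.44 (adjusted p = 0.185 in limma). Sr-CIV had 9 measured neighbours, all between -0.17 and 0.16, with 0 past the threshold in limma.

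Tep3 lies next to Tep2. Of its 8 measured neighbours, 1 passed, CG13794 (-0.88, adjusted p = 0.00607 in limma), while CG13793, next to it, was at 0.48 (adjusted p = 0.222 in limma). Around the 8 members together, 69 neighbours that are not members were measured, 2 passed (where 0.464% of all probe sets did) and their median was -0.04. The neighbours of Sr-CI and NimC1 on either side were named by a fixed rule, and the wider window of 5 genes was chosen after seeing the data.

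**Figure D5:**
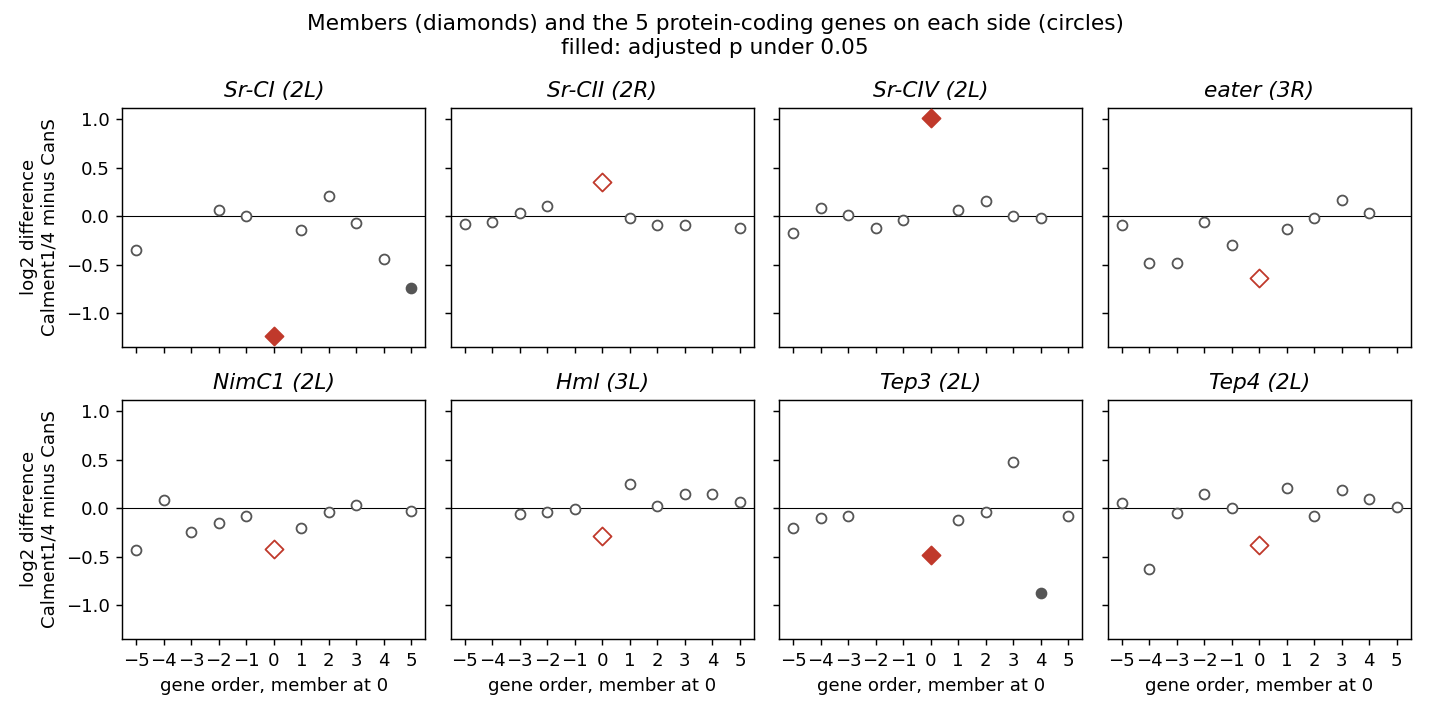
Log2 difference, Calment1/4 minus CanS (y axis), of each member (diamond at 0) and of the measured genes among the 5 protein-coding genes on each side in RefSeq order (circles; x axis, rank in gene order); filled symbols passed an adjusted p of 0.05. Among the neighbours, Naprt near Sr-CI (-0.74) and CG13794 near Tep3 (-0.88) are filled.

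For Sr-CI, eater and Hml, the 3 genes whose values were most like theirs over the 6 arrays were looked up among 7788 genes with a mean above the median of all probe sets. Likeness was Pearson's r, which ignores how far a gene moves. For Sr-CI these were Pak3, a kinase (r = 0.995), dia, the formin Diaphanous (r = 0.994), and CG5953 (r = 0.993). On the log2 scale dia was at -0.50 (adjusted p = 0.117 in limma), Pak3 at -0.07 and CG5953 at -0.21, all smaller than the -1.24 of Sr-CI. For eater they were CG13063, Srg1 and CG5276 (r = 0.991, 0.985 and 0.981), of which Srg1 was at -0.61 (adjusted p = 0.0676 in limma). For Hml they were Vha55, a subunit of the vacuolar proton pump (r = 0.997), kst, a heavy spectrin (r = 0.974), and Tsf1, the iron-binding transferrin (r = 0.970), with Tsf1 at -0.38 (adjusted p = 0.694 in limma). Over 6 arrays, 23 genes correlated with Sr-CI above 0.95, 17 with eater and 9 with Hml. These r values include the difference between the genotypes. With 6 arrays and 7788 genes, values this high can arise by chance, so no relation between the genes is read from them.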

How the data were processed

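The table deposited by the authors holds log2 values, 1 for each probe set on each array, with array medians of 5.84 to 5.91. Per the submitters' processing notes affy 1.36.0 was used, beside RMA and MAS5, with no role stated; no source used here says which of them gave the deposited log2 values. If RMA gave the values, they are normalized between arrays and compressed near the floor. Detection calls were not used here.

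After leaving out 183 control probe sets, the 18769 others were fitted with the lmFit and eBayes steps of limma 3.58.1 (R 4.3.3). Genotype was the single term and tests were two-sided, with Benjamini-Hochberg adjustment over all of them and a threshold of 0.05. The step was tested on simulated data. Names came from the platform's annotation, updated through RefSeq, and 13647 probe sets had exactly 1 symbol, 402 several and 4720 none. Where a gene of a list had several probe sets, the brightest was used. The titles call the arrays biological replicates.

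The members and gene lists were chosen with earlier results of these data known. Named genes are the members, the largest calls of each list or otherwise its 2 of smallest p, the genes most like Sr-CI, eater and Hml, and neighbours; crq, drpr, He, Sr-CIII and others given for their role were added. Alternatives were another normalization, median centring, a dim filter, trend and robust eBayes, array weights, a replicate block, a threshold of 0.01 and leaving out arrays. Planned protein and promoter features were not analysed here. Figures were drawn with matplotlib 3.10.9.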

Additional observations from a re-analysis of the deposited data

How the results depend on the processing

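No member's log2 difference changed sign in the 13 refits; for the 6 members whose groups do not overlap, leaving out arrays could not change it. The median difference of the members ran from -0.50 to -0.34. The number of probe sets past the threshold, 87 as reported, was 337 with array weights, 228 without Calment1/4 replicate 1 and CanS replicate 3 together, 38 at an adjusted p of 0.01, and 38 to 281 with 1 array left out. Of the 8 members, 5 passed with array weights, 0 at an adjusted p of 0.01 and 0 to 5 with 1 array left out. In the clotting and melanization list, 1 gene passed with array weights, 2 without those 2 arrays together and 0 to 1 with 1 array left out, from 0 as reported. In the blood-cell marker list it was 1, 1 and 0 to 1. Trend and robust eBayes ended the call of Tep3 (2 members passing). The cause was not tested. The replicate numbers did not pair the arrays: same-numbered arrays correlated at -0.29, 0.20 and -0.43 in their deviations from the group means. With the replicate block, 30 probe sets and 0 members passed. With 3 arrays a group, their number limits the precision of every value.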
